A study of Mus musculus with 3 samples.

Results

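Mid excitatory (ME) neurons are one of the neuron sub-types that the authors assigned to nuclei of the mouse lumbar spinal cord, and they are described here across all genes, mice and genotypes. They are the nuclei that carry both the deposited cell type label Neuron and the deposited sub-type label ME, which holds for 198 of 14662 nuclei and 2.25% of 8800 neurons. The tissue came from 12 mice aged 90 days, 6 SOD1G93A mice of the strain B6.Cg-Tg(SOD1G93A)1Gur/J and 6 C57BL/6J littermates without the transgene (WT), with 3 females and 3 males in each genotype. The transgene is a mutant human SOD1 gene, present in many copies and under its own human promoter, so that it is not limited to neurons. A female and a male of either genotype were tagged with hashtag antibodies and run together, which gave the pools A, B and C of 4 mice.

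Neurons of the spinal cord are laid out from the dorsal horn, which receives touch, itch, pain and temperature signals, to the ventral horn, which holds the circuits for movement. Between them lie neurons of the deep dorsal horn and the intermediate zone, which take in sensory and descending input and pass it on to ventral circuits. Excitatory neurons there load glutamate into vesicles with the transporter VGLUT2, the product of Slc17a6, while inhibitory neurons make GABA or glycine and express Gad1, Gad2, Slc32a1 and Slc6a5. Early-born and late-born neurons of the cord also differ in a set of transcription factors, with Nfia, Nfib, Prox1 and Tcf4 in one set (N class) and Zfhx3, Zfhx4, Foxp2 and the Onecut factors in the other (Z class).

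The ME label rests on a mapping of each nucleus to a published reference of spinal cord nuclei, and all 198 nuclei were mapped to the same reference label. Of the 208 nuclei mapped to it, 7 were labelled dorsal excitatory (DE), 2 were left as unclear neurons and 1 was no neuron. The deposited mapping score, which runs from 0 to 1, had a median of 0.687 in ME, against 0.945 in DE, 0.490 in ventral excitatory (VE) and 0.683 in mid inhibitory (MI) neurons. It was at least 0.5 in 138 ME nuclei (69.7%). The labels were made from the same transcripts that are described below, so differences between ME and other sub-types are given as descriptions without a test. An ME nucleus had a median of 11728.5 unique molecular identifiers (UMIs, each a captured transcript) and 3699 genes, and the sums over the ME nuclei of a mouse ranged from 61732 to 483266 UMIs. Of 15 barcodes found in more than 1 pool, 0 belonged to ME nuclei.

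The marker of the label, Slc17a6, was found in 122 of 198 ME nuclei, or 61.6% (95% exact binomial interval 54.5 to 68.4%). The share was 64.4% in DE neurons, with a median of 10188 UMIs, and 67.5% in VE neurons, with a median of 19812 UMIs. Among cells that should lack it, 10.3% of dorsal inhibitory (DI) nuclei had a UMI, at a median depth of 11763 UMIs, and 12.4% of oligodendrocytes, at 5786 UMIs. After thinning every nucleus to 3000 UMIs, which left out 3 ME nuclei, the shares were 21.5% in ME, 29.5% in DE, 25.5% in VE, 2.87% in DI and 5.68% in oligodendrocytes. These intervals cover counting error only. The other vesicular glutamate transporters, Slc17a7 and Slc17a8, had no UMI in ME.

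Genes of inhibitory neurons were low in ME. Gad1, Gad2, Slc32a1, Slc6a5 and Pax2, a transcription factor of inhibitory neurons, together had 124 UMIs in ME, where Slc17a6 had 253, a ratio of 2.04 Slc17a6 UMIs to 1. The same ratio was 2.49 in DE, 0.914 in VE, 0.0633 in MI and 0.0195 in DI. Both kinds of UMI were found in 39 ME nuclei, only inhibitory ones in 20, and neither in 56. Doublets of 2 nuclei from the same mouse are not marked in the deposited labels. The cholinergic gene Slc18a3 had no UMI in ME and Chat had 3. The 5 cholinergic and motor neuron markers together had 420 UMIs in ME, however. As summed CPM, defined below, their medians were 142 in WT and 168 in SOD1G93A mice, against 1522 in motor neurons. Slit3, the only 1 of them with 100 UMIs in ME, was higher there than in DE (mean log2 difference 1.82) and VE (0.21).

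Markers of other cell types were checked in each mouse as the sum of their CPM (UMIs of a gene as a share of all UMIs of the mouse's ME nuclei, on the usual CPM scale) without further scaling. The 5 oligodendrocyte markers summed to 174 to 596 CPM in WT and 32.4 to 685 CPM in SOD1G93A mice, against 7883 CPM in oligodendrocytes. The myelin gene Mbp averaged 120.1 CPM in ME, 191 CPM in DE and 85.3 CPM in VE, on the scale of the sub-type comparison below. The 5 astrocyte markers reached at most 68.5 CPM in any mouse, against 2391 CPM in astrocytes, and the 3 endothelial markers 14.0 CPM, against 6767 CPM in endothelial cells. The 3 microglia markers reached 18.4 CPM, but they stood at only 74.6 CPM in microglia, so they tell less. Prx of Schwann cells was at 0, while its list of 3 genes summed to only 20.3 CPM in Schwann and meningeal cells. The 4 markers of oligodendrocyte precursors (OPCs) summed to 541 to 1231 CPM over all mice, almost all of it Tnr, which is also expressed by many neurons and stood at 631 CPM in ME, 287 CPM in DE and 633 CPM in VE.

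ME made up 1.52 to 2.65% of the neurons with a sub-type in the 6 WT mice, with a median of 2.20%, and 1.63 to 5.46% in the 6 SOD1G93A mice, with a median of 1.92%. The numbers of ME nuclei were 12 to 30 per WT mouse and 5 to 23 per SOD1G93A mouse, from 266 to 1562 neurons. The mouse that stood apart was the male SOD1G93A mouse of pool C at 5.46%, while the other 5 SOD1G93A mice reached at most 2.76% and overlapped the WT mice. The mean share was 2.17% ± 0.451 (SD, n = 6) in WT and 2.58% ± 1.46 (SD, n = 6) in SOD1G93A mice. The genotypes did not differ beyond this spread by the edgeR quasi-likelihood test of the nuclei counted in each sub-type (log2 ratio 0.16, adjusted p = 0.739), and the sign of the ratio turned without the male SOD1G93A mouse of pool C (−0.05) and without the female WT mouse of pool C (−0.06). Within pools, the mean log2 ratio of SOD1G93A to WT was 0.18 in pool A, −0.30 in pool B and 0.52 in pool C. It was negative in all 3 pools for females (−0.50, −0.38 and −0.10) and 0.86, −0.23 and 1.14 for males. Females and males did not differ either (log2 ratio −0.20 for female minus male, adjusted p = 0.894). Of the 9 sub-types, 0% passed the threshold of 0.05 for genotype and 0% for sex. A smaller share of nuclei can stand for fewer cells or for poorer recovery of nuclei, and these cannot be told apart.

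**Figure D1:**
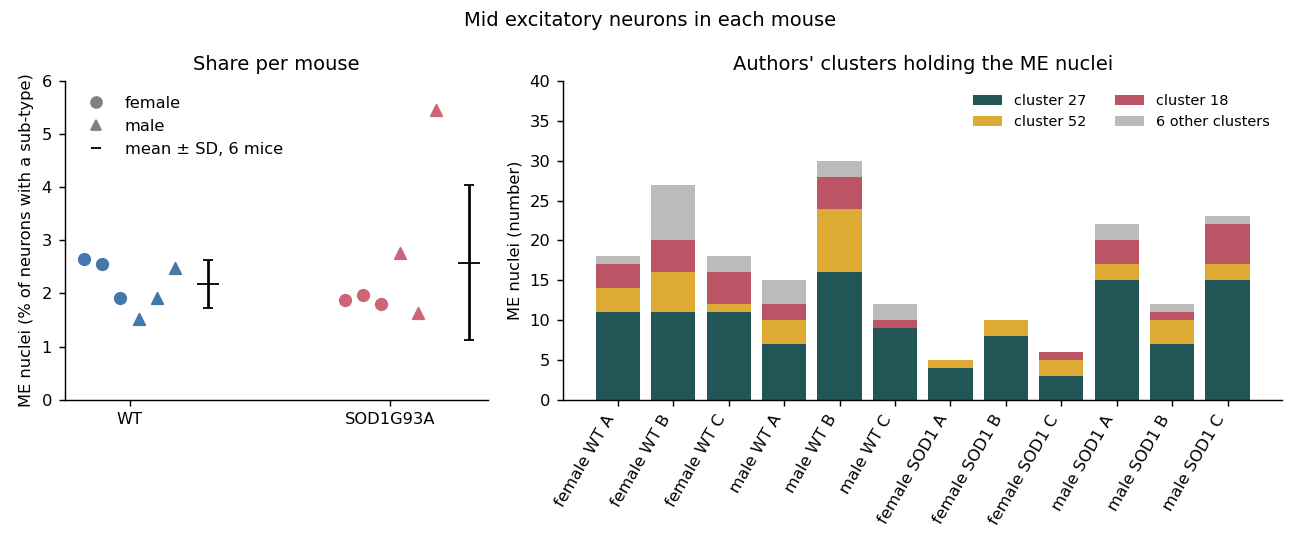
The left panel plots the share of ME nuclei among neurons with a sub-type (%) for each of 12 mice by genotype, with circles for females, triangles for males and bars for the mean ± SD of 6 mice. The right panel plots the number of ME nuclei per mouse by the authors' cluster. One male SOD1G93A mouse lies at 5.46%, and the other 11 mice lie between 1.52 and 2.76%.

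Depth, genes per nucleus and mitochondrial percent of ME nuclei did not differ between genotypes beyond the spread of the pairs. The median number of UMIs per nucleus ranged from 10602.5 to 15867 in WT and from 9228 to 22152 in SOD1G93A mice. The mean difference of the 6 pairs of the same sex and pool was −0.10 on the log2 scale (SD 0.59, exact permutation test over 64 sign changes, two-sided p = 0.719, higher in 2 of 6 pairs). Genes per nucleus at 3000 UMIs differed by 1.14 between genotypes (SD 32.6, exact p = 0.875, higher in 4 of 6 pairs). The mitochondrial percent differed by −0.0332 percentage points (SD 0.126, exact p = 0.562, higher in 3 of 6 pairs). The smallest p these pairs allow is 0.0312. The median mapping score was 0.551 to 0.709 in WT and 0.590 to 0.922 in SOD1G93A mice, and its part in the genotype results below was not tested.

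To describe what sets ME apart, UMIs were summed per mouse and sub-type, scaled together over all sub-types, and compared within each mouse. Values in this comparison are mean CPM over 12 mice, and a difference is the mean of the within-mouse log2 differences. Across 4043 genes with at least 100 UMIs in ME, the mean levels of ME ranked most like those of MI neurons (Spearman's rho 0.949), followed by unclear neurons (0.940). Ventral mixed (0.928), ventral cholinergic (0.928) and DI neurons (0.922) came next, then DE (0.918), VE (0.918) and ventral inhibitory neurons (0.897). This is a description across genes that are not independent. At least 2-fold differences from MI numbered 62 higher and 60 lower, from DE 80 higher and 153 lower, and from VE 109 higher and 130 lower. The median difference over these genes was −0.18 against DE and −0.21 against VE, and single differences are to be read relative to it. At least 2-fold higher levels than in both DE and VE, in 10 or more of the 12 mice, were found for 28 genes (0.693% of 4043), of which 17 were higher in all 12.

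Transcription factors were among these genes. Nfib, a nuclear factor I protein that acts in the maturation of neurons and glia, had 299.5 to 674 CPM in ME, with a median of 532 CPM. It had 99.7 to 177 CPM in DE and 21.5 to 87.6 CPM in VE, so that no mouse overlapped, while MI at 329 to 630 CPM did. Nfib is also strong in glia, with a UMI in 84.8% of oligodendrocytes and 94.8% of astrocytes against 78.3% in ME, 36.6% in DE and 35.8% in VE. The levels of Mbp, lower in ME than in DE but not than in VE, are given above. Tcf4, a helix-loop-helix partner of proneural factors, had 839 to 1346 CPM in ME, above all mice of DE (281 to 476 CPM) and VE (156 to 317 CPM). MI had 519 to 875 CPM and overlapped ME. Tox3, a chromatin-binding factor, averaged 139.8 CPM in ME, 26.0 CPM in DE, 40.4 CPM in VE and 126 CPM in MI.

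Of the 6 N-class factors, 5 had at least 100 UMIs in ME, and their median difference was 0.72 from DE and 2.02 from VE. Nfix (40.3 CPM against 9.33 CPM in VE) and Prox1 (33.6 against 8.33 CPM) were higher than in VE, while Nfia (285 CPM) lay between DE (166 CPM) and VE (390.5 CPM). Neurod2 had no UMI in ME. The Z-class factor Zfhx3, which is a mark of many ventral neurons, was low at 29.0 to 118 CPM in ME against 592 to 1211 CPM in VE, without overlap. Low Zfhx3 was not particular to ME, since DE (75.1 to 158 CPM), MI (24.2 to 212 CPM) and DI (99.1 to 231 CPM) overlapped it. The 2 Z-class factors with at least 100 UMIs in ME had a median difference of −0.38 from DE and −2.13 from VE. Zfhx4 differed less, with 157 CPM in ME and 233 CPM in VE. Foxp2 averaged 23.9 CPM in ME and 59.1 CPM in VE, Onecut2 6.59 and 48.8 CPM, and Onecut1 had no UMI in ME.

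Several factors listed for dorsal excitatory neurons were lower in ME than in DE. Ebf1 had 71.0 to 553 CPM in ME and 3034 to 4837 CPM in DE, and Ebf2 averaged 69.8 against 1095 CPM. Ebf1 was not limited to excitatory neurons, with 1407 to 3113 CPM in DI, and its range in ME overlapped that in VE (199 to 526 CPM). Lmx1b, which is needed for many dorsal excitatory neurons, lay between DE (128 CPM) and VE (6.61 CPM) at 43.5 CPM, and Maf averaged 39.1 CPM in ME, 93.9 CPM in DE and 37.3 CPM in VE. Prrxl1, a factor of neurons that receive nociceptive input, averaged 6.21 CPM in ME and 45.2 CPM in DE. Tlx3 and Lbx1 had 3 and 2 UMIs in ME. Rora was high throughout, with 1721 CPM in ME, 2509 CPM in DE and 1920.2 CPM in VE. None of the 11 ventral excitatory factors reached 100 UMIs in ME, and Sim1, which marks a ventral excitatory class, had 1 UMI.

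**Figure D2:**
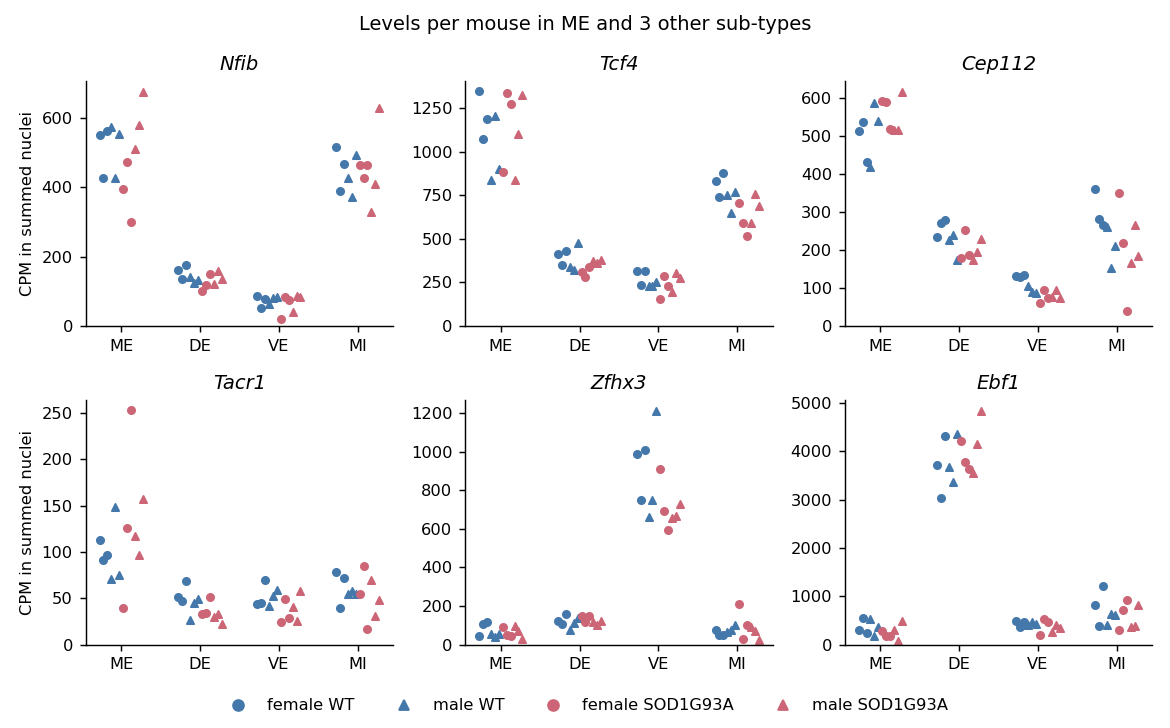
Each panel plots the level of 1 gene (CPM of summed nuclei, linear axis from 0) in ME, DE, VE and MI neurons for each of 12 mice, with circles for females, triangles for males, blue for WT and red for SOD1G93A. Nfib, Tcf4 and Cep112 in ME lie above all mice of DE and VE, Zfhx3 lies below all mice of VE and Ebf1 below all mice of DE, while Tacr1 overlaps.

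Laminar markers of the dorsal horn were partly higher and partly lower in ME than in DE. Cep112, which encodes a centrosomal protein, had 418 to 616 CPM in ME, 173 to 279 CPM in DE and 59.6 to 135 CPM in VE. Satb1, a chromatin organizer, averaged 228 CPM in ME, 159 CPM in DE and 50.5 CPM in VE. Tacr1, the receptor for substance P, had 39.5 to 253 CPM in ME with a median of 105 CPM, and 21.8 to 68.9 CPM in DE. It was higher in ME than in DE and VE within each of 12 mice, although the ranges over mice overlapped. Ventral cholinergic neurons had more Tacr1 than ME, with 80.9 to 225 CPM and a median of 145 CPM. Calb1 (22.3 against 75.2 CPM in DE) and Reln (105 against 232 CPM) were lower than in DE. Of 16 neuropeptide genes, 0 reached 100 UMIs in ME. Nmu averaged 0.345 CPM in ME and 56.1 CPM in DE, Sst 6.67 and 54.0 CPM, Tac1 5.80 and 27.5 CPM, and Penk 25.9 and 41.6 CPM.

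The 15 genes that stood highest in ME against both DE and VE hold 8 protein-coding genes and 7 long noncoding RNAs in the GENCODE vM21 annotation of GRCm38 (mm10). Cdh23, a cadherin known from hair cells, lies at chr10:60302748-60696490 and had 64.6 to 236 CPM in ME, 9.70 to 24.5 CPM in DE and 1.66 to 18.3 CPM in VE. The noncoding RNA Gm28905 (chr10:9976627-10207981) had 272.5 to 843 CPM in ME, 27.2 to 82.3 CPM in DE and 92.8 to 199 CPM in VE. Both were above all mice of DE and VE. Ventral mixed neurons had 0 to 144 CPM of Cdh23, with ME higher in 9 of 12 mice. Spon1, which encodes the extracellular matrix protein spondin 1, averaged 143 CPM in ME, 36.6 CPM in DE and 25.0 CPM in VE. It was also at 101 CPM in DI, with ME higher in 9 of 12 mice, and at 70.7 CPM in ventral cholinergic (VC) neurons. Adamts2, a procollagen protease, averaged 80.5 CPM in ME, 13.6 CPM in DE and 22.3 CPM in VE. Sntg2, a syntrophin, averaged 90.0 CPM in ME against 30.3 CPM in DE and 16.3 CPM in VE. Npsr1, the neuropeptide S receptor, averaged 50.5 CPM in ME, 4.25 CPM in DE and 7.44 CPM in VE, and it ranged from 0 to 155 CPM over mice in ME. In MI it averaged 32.5 CPM, with ME higher in 5 of 12 mice.

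The other noncoding RNAs were Gm29478 (41.9 CPM in ME, 3.82 in DE, 3.47 in VE, but 25.2 in MI, with ME higher than MI in 7 of 12 mice), Gm49171 (51.3, 6.02 and 10.3 CPM), A830019P07Rik (49.4, 11.8 and 14.7 CPM) and 2810404M03Rik (73.7, 9.08 and 5.23 CPM). In ME, 2810404M03Rik ranged from 0 to 413 CPM with a median of 28.2 CPM, and the highest value came from the SOD1G93A female of pool C, with 6 nuclei. Gm20754 (390.5 CPM in ME, 107 CPM in DE and 131 CPM in VE) and 4930509J09Rik (75.2, 20.5 and 18.4 CPM) are annotated on opposite strands of overlapping stretches of chromosome 3, at chr3:73066316-73594830 and chr3:73351206-73481651. The use of strand in counting is not given in the sources used here, so their reads may not be fully separate. Among the 28 genes, 7 were also at least 2-fold higher in ME than in each of the other 8 labels on average, namely 2810404M03Rik, Gm49171, Gm28905, Cdh23, 4930509J09Rik, Cep112 and Gm20754. With only nuclei holding a Slc17a6 UMI, the smaller of the differences from DE and VE was 0.73 for 2810404M03Rik and 0.62 for Adamts2, in place of 1.82 and 1.69, and with WT mice only it was 0.99 for 2810404M03Rik. Of the 28 genes, 16 (57.1%) were also higher in MI than in both DI and ventral inhibitory (VI) neurons, against 15.7% of the 4043 genes, and 4 (14.3%) were at least 2-fold higher there, against 0.346%. These 16 overlap with the 7, as for Gm28905.

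Genes lower in ME than in both DE and VE are less certain, because ME has fewer UMIs and low counts pull its log values down. At least 2-fold lower levels in 10 or more mice were found for 262 of 11441 genes with 100 UMIs in both DE and VE (2.29%). A330008L17Rik, a noncoding RNA, averaged 53.8 CPM in ME, 432 CPM in DE and 209.9 CPM in VE, and it was lower in all 12 mice. Ndst3, a heparan sulfate sulfotransferase, averaged 38.9 CPM in ME against 186 and 191 CPM, and Frmpd1, a scaffold protein, 13.2 against 111 and 53.9 CPM. The integrin genes Itga9 (2.48 against 23.3 and 39.7 CPM) and Itgav (7.45 against 27.4 and 25.6 CPM) were low as well. The other leading genes were Lncenc1, Abi3bp, Gm2115, Abtb2 and Arhgap31, with 1.78 to 9.20 CPM in ME and 13.9 to 51.2 CPM in DE and VE.

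**Figure D3:**
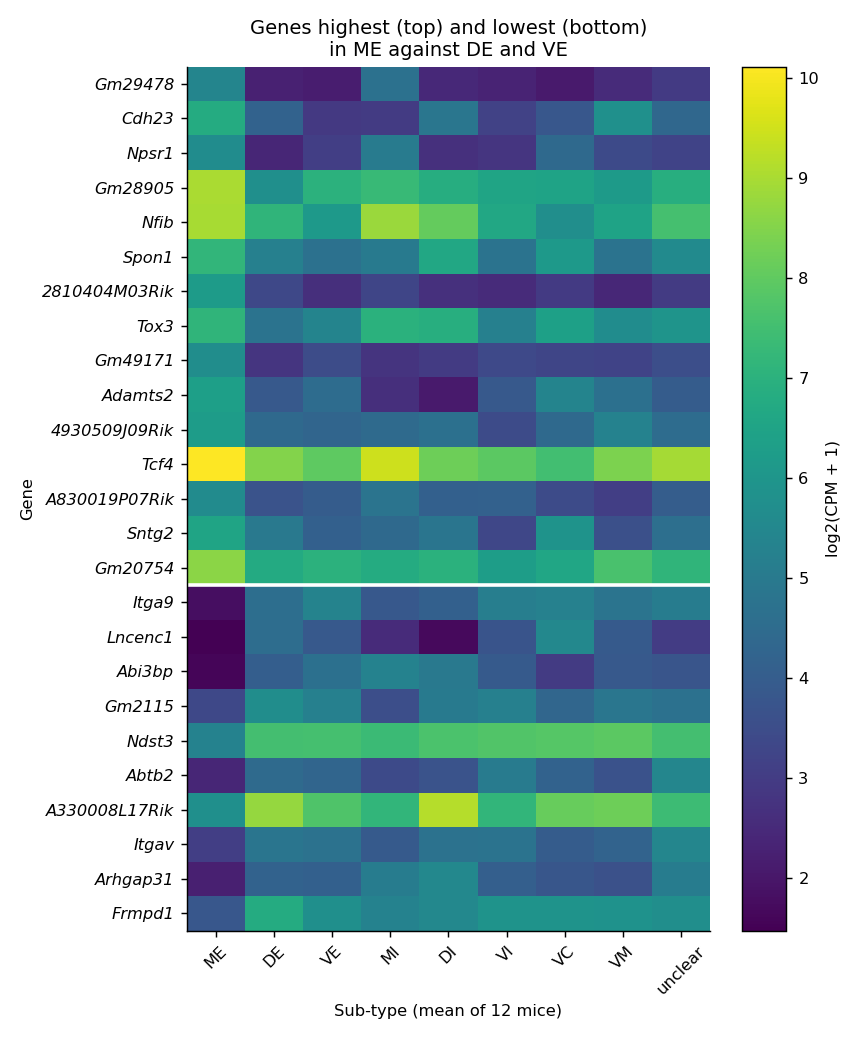
The heat map shows the mean level over 12 mice, as log2(CPM + 1), of the 15 genes highest (above the white line) and the 10 lowest (below it) in ME against DE and VE, in 9 sub-type labels. Nfib, Tcf4 and Tox3 are also high in MI, whereas Gm28905 and 2810404M03Rik stand out in ME. Cdh23 is highest in ME, with ventral mixed neurons next.

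In 9 lists of receptor, channel and release genes, 2 genes were higher and 2 lower than in both DE and VE by the same 2-fold rule, beside 28 higher (0.693%) and 28 lower of all 4043 genes. Of 7 kainate and delta receptor genes with 100 UMIs, 1 was at least 2-fold higher than in both DE and VE, Grik3, with 128 CPM in ME, 32.7 CPM in DE and 54.4 CPM in VE. In MI, Grik3 averaged 187 CPM, above ME. Among 4 glycine receptor genes the 1 higher was Glra2 (113 CPM, 50.8 and 42.2 CPM), with 101 CPM in MI. Glra1 was lower than in both DE and VE on average (183 CPM, 241 and 334 CPM). Among 5 metabotropic glutamate receptor genes, 0 were higher and 1 was lower by this rule. Among 23 potassium channel genes, Kcnh1 was at least 2-fold lower (73.1 CPM against 172 and 144 CPM). Kcnd3, an A-type channel gene of the superficial dorsal horn, was at 73.4 CPM against 512 CPM in DE and 77.8 CPM in VE. No AMPA receptor gene (4), NMDA receptor gene (5), GABA-A receptor gene (10), sodium or calcium channel gene (16) or presynaptic release gene (17) passed this rule in either direction. The median differences of these 9 lists lay between −0.81 and −0.13 against DE and between −0.19 and 0.44 against VE, beside −0.18 and −0.21 for all 4043 genes.

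The ME label is not one uniform group in the authors' own clustering of all nuclei. Cluster 27 held 117 ME nuclei from all 12 mice (59.1%), cluster 52 held 32 nuclei from 11 mice (16.2%) and cluster 18 held 28 nuclei from 10 mice (14.1%). The other 21 nuclei lay in 6 clusters. ME was the most frequent label in cluster 27 (67.2% of 174 nuclei) and in cluster 52 (50.8% of 63), but cluster 18 was mostly DE (205 of 289 nuclei). Median mapping scores were 0.761 in cluster 27, 0.683 in cluster 52 and 0.421 in cluster 18, with median depths of 11289, 11732 and 14996.5 UMIs. Since the clusters were made from the same transcripts, their genes are a description, summed over the ME nuclei of all mice. These genes and clusters were chosen after their values were seen.

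The leading ME genes were divided among the clusters. Cluster 27 had Nfib at 703 CPM, Cdh23 at 147 CPM, Gm20754 at 581 CPM, Npsr1 at 77.2 CPM and Gm29478 at 83.4 CPM, with a UMI of Nfib in 95.7% of nuclei and of Npsr1 in 21.4%. Bnc2, a zinc finger factor, Msra, an enzyme that repairs oxidized methionine, and Maf (62.0 CPM, against 2.42 CPM in cluster 52 and 12.7 CPM in cluster 18) were also highest there. Cluster 52 lacked most of these, with 9.67 CPM of Nfib and no UMI of Cdh23 or Lmx1b, but it had Tcf4 at 1071 CPM. It carried 2810404M03Rik at 329 CPM (22.0 CPM in cluster 27), Gm28905 at 1047 CPM and Ebf2 at 229.7 CPM. Its own leading genes were Dlk1 (138 CPM, against 2.76 and 2.11 CPM), a Notch ligand homologue, Lcp1, an actin-bundling protein, Hcrtr2, the orexin receptor 2 (196 CPM, against 27.6 CPM in cluster 27 and no UMI in cluster 18), and Adra1a, an adrenergic receptor. Dlk1 had a UMI in 75% of these nuclei and in 3.42% of those of cluster 27.

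Cluster 18 had Nfib (581 CPM) and Cdh23 (152 CPM) like cluster 27, but no UMI of Npsr1 or 2810404M03Rik. It had the highest share of nuclei with a Slc17a6 UMI, 82.1%, against 59.0% in cluster 27 and 53.1% in cluster 52. The noncoding RNA D130009I18Rik (chr14:104612791-104966783) had 1087 CPM there and 15.8 and 9.67 CPM in the other clusters. Reln, the extracellular matrix protein reelin (277 CPM against 45.5 and 184 CPM), and Penk, which encodes enkephalins (69.7 against 28.9 and 9.67 CPM), were also highest in it. Cep112 was at 745, 314 and 325 CPM in clusters 27, 52 and 18, so that it was highest in cluster 27. Chrm3, a muscarinic receptor gene, was high in all 3, at 776, 1030.1 and 722 CPM. Cluster 27 held 65 of 120 ME nuclei in WT (54.2%) and 52 of 78 in SOD1G93A mice (66.7%), with 40.7 to 75% and 50 to 80% over single mice. Cluster 52 held 16.7% and 15.4%, and cluster 18 held 15.0% and 12.8%.

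**Figure D4:**
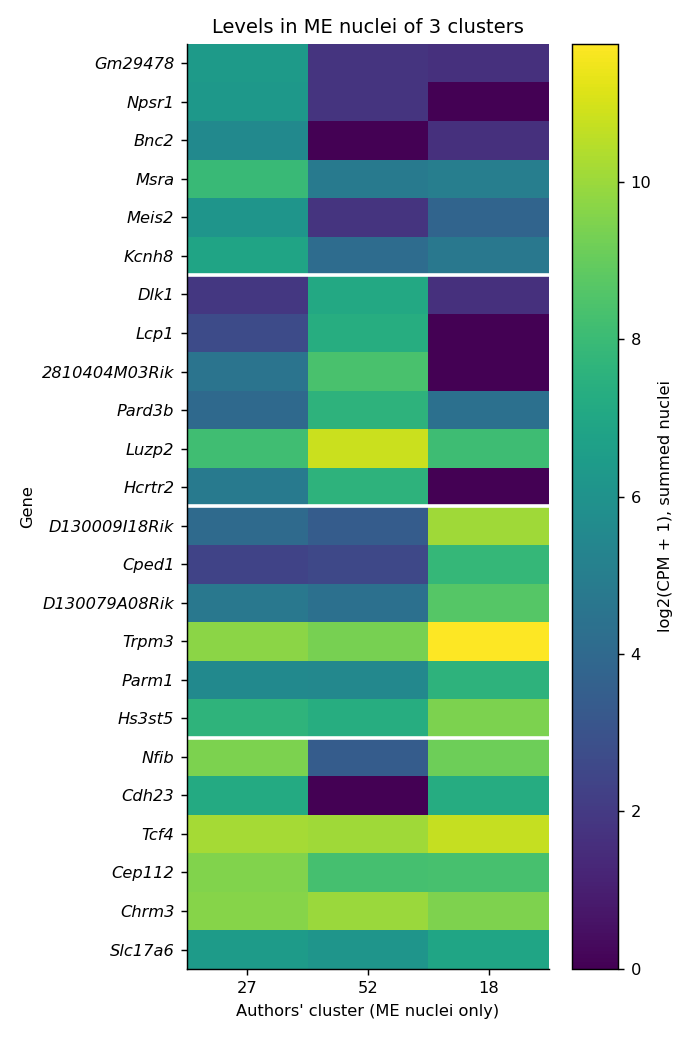
The heat map shows levels, as log2(CPM + 1) of summed ME nuclei, in the 3 largest of the authors' clusters holding ME nuclei. The first 3 blocks are the 6 genes highest in clusters 27, 52 and 18 in turn, and the last block holds genes named in the text. Nfib and Cdh23 are high in clusters 27 and 18 and low or at 0 in cluster 52, while Tcf4 and Chrm3 are high in all 3.

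Genotype was tested in ME on UMIs summed per mouse with limma-voom, following the study's methods with a threshold of FDR < 0.1. Values per mouse and group means in ME are from here on CPM scaled over the 12 ME sums, those of another sub-type are scaled over its own sums, and levels within clusters are pooled without scaling. Of 3977 genes, 0 passed (0%), with edgeR and DESeq2 also at 0. At an unadjusted p under 0.05 there were 147 genes (3.7%), 82 higher and 65 lower in SOD1G93A mice. edgeR gave 142 and DESeq2 61 such genes. The median standard error of a log2 fold change was 0.25, and the median change over all genes was 0.01. The genotypes did not overlap for 7 genes (0.176%), and all 6 pairs of the same sex and pool changed the same way for 113 genes (2.84%), 55 higher and 58 lower. The smallest adjusted p was 0.352 by limma-voom.

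The 10 genes named by the rule, those of smallest p among the 113, are given with values and not as changes. Alcam, a cell adhesion molecule of growing axons, had 531 to 766 CPM in WT mice (median 590.3, n = 6) and 698 to 1090.3 CPM in SOD1G93A mice (median 958.5). The groups overlapped in 1 WT and 1 SOD1G93A mouse, both male. Its log2 fold change was 0.59 (SE 0.13, limma-voom adjusted p = 0.352). The mean difference within pools A, B and C was 0.71, 0.58 and 0.45, and it was 0.84 in females and 0.32 in males. Pde1a, a calmodulin-dependent phosphodiesterase, had 97.8 to 308 CPM in WT and 64.6 to 241 CPM in SOD1G93A mice (log2 fold change −0.87, SE 0.19, limma-voom adjusted p = 0.352). Both genes differ between the clusters of ME nuclei. Pde1a had 88.2 CPM in cluster 27 and 440.1 CPM in cluster 52, and with only the nuclei of cluster 27 its fitted log2 fold change was 0.01, while their pooled level was 101 CPM in WT and 70.4 CPM in SOD1G93A mice. The pooled level of Pde1a in WT and SOD1G93A mice was 508 and 318 CPM in cluster 52 and 243 and 69.5 CPM in cluster 18. The last value comes from 12 UMIs in 10 nuclei. Such levels pool the nuclei of several mice and do not give an effect per mouse. With no filter on low counts Pde1a passed (limma-voom adjusted p = 0.0437). That fit gave 2146 of 18637 genes an unadjusted p under 0.05, against 147 of 3977 in the main fit, so its calls are less certain. Alcam had 577 CPM in cluster 27 and 1100.3 CPM in cluster 52, and its change within cluster 27 was 0.36. Its pooled level in WT and SOD1G93A mice was 535 and 635 CPM in cluster 27, 839 and 1569 CPM in cluster 52 and 435 and 469 CPM in cluster 18. These pooled levels of 10 to 65 nuclei per genotype carry no test.

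The other 8 genes had adjusted p of 0.994 by limma-voom. Ctif, which acts in the translation of newly exported mRNA, averaged 162 ± 35.7 CPM in WT and 253 ± 34.4 CPM in SOD1G93A mice (SD, n = 6 each). Slc20a2, a phosphate transporter, Cdc42se2, an effector of the GTPase Cdc42, and Brd8, a bromodomain protein, had log2 fold changes of 0.98, 0.77 and 0.83. Tbc1d9, a TBC domain protein, had 58.7 to 102 CPM in WT and 16.2 to 55.6 CPM in SOD1G93A mice, without overlap, on 143 UMIs in all. Dner, a Notch ligand of neurons, had 191 to 284 CPM in WT and 121 to 183 CPM in SOD1G93A mice, without overlap. Tmtc2 and Gm16083 had log2 fold changes of −0.68 and −1.42, the latter with 151 UMIs in all and on the opposite strand of Cd55. The pooled level of Tmtc2 in WT and SOD1G93A mice was 205 and 139 CPM in cluster 27 and 309 and 216 CPM in cluster 52. In cluster 18 it went the other way, at 66.4 and 145 CPM, again without a test.

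Sod1, Xpo1 and Flrt2 passed FDR < 0.1 in other sub-types of these mice, so their values in ME are given beside them as no independent evidence. The same mice enter both. Sod1, the endogenous gene of the enzyme whose human form the transgene carries, had 32.7 to 107 CPM in WT and 40.4 to 205 CPM in SOD1G93A mice, overlapping, with 5 of 6 pairs higher. Its log2 fold change in ME was 0.71 (95% interval 0.21 to 1.21, unadjusted p = 0.00704 by limma-voom, adjusted p = 0.994), and it was 1.13 in DE, 1.20 in MI and 1.64 in VE. How many reads of the human transgene were counted under Sod1 was not tested. Xpo1, the exportin that carries proteins with a leucine-rich signal out of the nucleus, had 28.01 to 117 CPM in WT and 79.6 to 162 CPM in SOD1G93A mice, with 6 of 6 pairs higher. Its log2 fold change in ME was 0.76 (95% interval 0.21 to 1.31, limma-voom adjusted p = 0.994), beside 0.53 in DE, 0.89 in MI and 0.47 in VE. Flrt2, an axon guidance ligand, had a log2 fold change of −0.37 in ME (95% interval −0.85 to 0.10, limma-voom adjusted p = 0.994), with 5 of 6 pairs lower, beside −0.76 in DE and −0.41 in VE. With each mouse left out it ranged from −0.20 (the WT male of pool A absent) to −0.66 (the SOD1G93A female of pool C absent). These intervals hold the values of DE for all 3 genes, and for Sod1 that of VE lies above the interval. The marker Slc17a6 averaged 103 ± 18.5 CPM in WT and 121 ± 42.5 CPM in SOD1G93A mice, with a log2 fold change of 0.11.

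**Figure D5:**
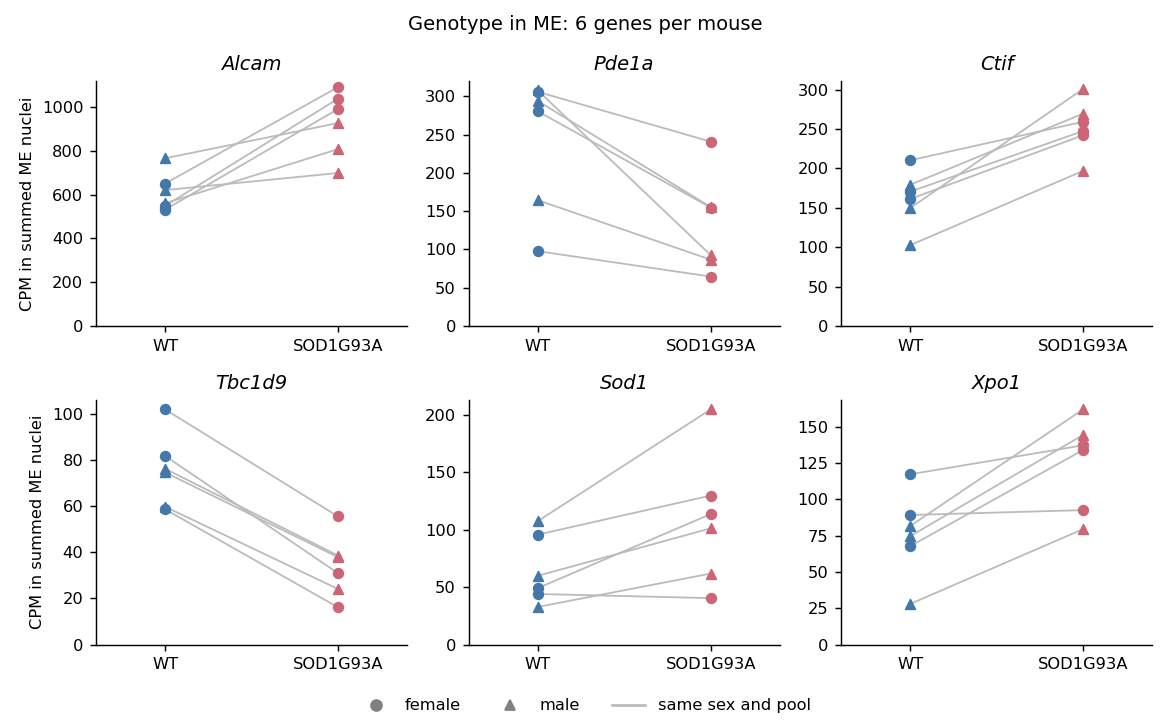
Each panel plots 1 gene (CPM of summed ME nuclei, linear axis from 0) for the 6 WT and the 6 SOD1G93A mice, with circles for females, triangles for males and grey lines joining mice of the same sex and pool. Alcam, Ctif and Xpo1 are higher and Pde1a and Tbc1d9 lower in SOD1G93A mice in all 6 pairs, and Sod1 is higher in 5, while none of the 6 passed FDR < 0.1. Alcam, Ctif, Pde1a and Tbc1d9 were chosen among genes whose 6 pairs all change the same way, so their agreement was fixed by that choice.

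Whether the genotype effect in ME differed from that in other excitatory neurons was tested with a term for each mouse. Of 9799 genes, 0 (0%) had a different effect in ME and DE at FDR < 0.1 by limma-voom, with 484 at an unadjusted p under 0.05, 3 genes by edgeR (Tmtc2, Pde1a and Col6a1) and 0 by DESeq2. Of 7960 genes, 1 (0.0126%) differed between ME and VE. It was Alcam, whose effect was larger in ME by 0.69 (95% interval 0.43 to 0.94, limma-voom adjusted p = 0.0486). In VE alone, Alcam averaged 276 ± 20.8 CPM in WT and 251 ± 11.2 CPM in SOD1G93A mice (log2 fold change −0.13). Its log2 fold change was also −0.13 in DE. It was 0.31 in MI, 0.32 in VC, 0.21 in ventral mixed, 0.09 in DI, 0.07 in unclear and 0.06 in VI neurons. None of these passed FDR < 0.1. Between ME and DE the Alcam effect differed by 0.63 (95% interval 0.32 to 0.93, limma-voom adjusted p = 0.407), which did not pass. The call between ME and VE was also made by edgeR and DESeq2 (adjusted p = 0.098 and 0.037). It was lost without the mouse term (limma-voom adjusted p = 0.205) and with no filter on low counts (0.310), and it was lost when any one of 10 of the 12 mice was left out, with adjusted p up to 0.458, although the difference stayed between 0.62 and 0.76 in all alternatives. The call held only when the male WT mouse of pool B (adjusted p = 0.0492) or the male SOD1G93A mouse of pool C (0.0377) was the one left out. The Sod1 effect in ME differed from that in VE by −0.94 (95% interval −1.48 to −0.39, limma-voom adjusted p = 0.774), which did not pass. For Xpo1 and Flrt2 the difference between ME and VE was 0.27 (95% interval −0.27 to 0.81) and 0.06 (−0.43 to 0.54). With each mouse left out, that of Xpo1 ranged from 0.10 (the WT male of pool A absent) to 0.41 (without the female WT mouse of pool C).

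Sex gave 3 genes at FDR < 0.1 (0.0754%), all on the sex chromosomes. Xist, which silences an X chromosome in females, was higher in females (log2 difference 5.90, limma-voom adjusted p = 1.8e-08). Uty and Eif2s3y, genes of the Y chromosome, were lower in females, with log2 differences of −5.29 and −4.198 (limma-voom adjusted p = 3e-06 and 7.8e-05), which checks the sex labels of the ME nuclei. With only mice of 10 or more ME nuclei, which leaves 1 SOD1G93A female, Eif2s3y did not pass (limma-voom adjusted p = 0.387). The difference of the genotype effects between males and females gave 0 genes by limma-voom (0%), with 166 at an unadjusted p under 0.05. edgeR gave 2 genes, Prr5l and Qk, and DESeq2 gave Prr5l.

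Lists of genes linked to motor neuron disease or to synapses held 0 genes that passed the test. Among 5 heat-shock and chaperone genes the median log2 fold change was 0.17, among 3 antioxidant and metal-binding genes 0.35, among 12 nuclear transport receptors −0.04, among 7 respiratory chain genes −0.01 and among 7 proteasome genes 0.10, beside 0.01 over all 3977 genes. Only Gap43, a protein of growing axons, was tested among the 16 injury and stress genes (mean 211 CPM in WT and 263 CPM in SOD1G93A mice, log2 fold change 0.34, SE 0.20), and only 2 of 9 activity-regulated genes were, with a median of 0.33. Of the 84 ribosomal protein genes, 0 had enough UMIs to be tested. The median was −0.01 for 4 AMPA receptor genes, −0.12 for 5 NMDA, 0.02 for 7 kainate and delta and 0.02 for 5 metabotropic glutamate receptor genes. It was 0.04 for 10 GABA-A and 0.03 for 4 glycine receptor genes, 0.08 for 16 sodium and calcium channel genes, −0.03 for 23 potassium channel genes and −0.05 for 17 presynaptic release genes.

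The smallest p in these lists belonged to Sod1, Xpo1 and Nrxn2. Nrxn2, a presynaptic adhesion protein, averaged 115 ± 21.0 CPM in WT and 162 ± 13.8 CPM in SOD1G93A mice, higher in 6 of 6 pairs (log2 fold change 0.52, limma-voom adjusted p = 0.994). Glra1, a glycine receptor subunit, averaged 184 ± 63.7 and 269 ± 74.1 CPM, and Fth1, the ferritin heavy chain, 181 ± 30.5 and 260.2 ± 127 CPM. Among the lists that describe the label, the 4 tested N-class factors had a median of −0.03, the 3 tested Z-class factors −0.05, the 4 tested dorsal excitatory factors −0.05 and the 4 tested laminar markers 0.15. Tacr1 averaged 118 ± 32.2 CPM in WT and 162 ± 83.9 CPM in SOD1G93A mice (limma-voom adjusted p = 0.994). The 5 neuron markers had a median of −0.03. Of the glial lists, 2 oligodendrocyte markers had a median of 0.18 and 2 OPC markers 0.49, where Vcan averaged 29.6 ± 15.8 and 67.4 ± 31.8 CPM. The smallest ME sum, 61732 UMIs from 5 nuclei in the SOD1G93A female of pool A, limits what these tests could detect.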

How the data were processed

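Nuclei of frozen lumbar cord were sequenced by the authors on the 10x platform (v3 chemistry). The deposited counts are UMIs per gene and nucleus, not normalized, made by the authors with Cell Ranger 3.1 on mm10. The authors assigned nuclei to mice from hashtags and removed nuclei with few genes, many mitochondrial UMIs or hashtags of several mice. The deposited mitochondrial percent, mapping score, cluster and sub-type columns were used as given, and the 14662 columns of the deposited integrated table were not used. Coordinates are those of GENCODE vM21.

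UMIs were summed per mouse and sub-type. Genes were filtered with filterByExpr (minimum count of 10), scaled with TMMwsp factors and fitted with limma 3.58.1 (voom, robust eBayes) with a term per sex and genotype group and per pool. Shares were tested with edgeR 4.0.16, and DESeq2 1.42.0 was an alternative. Differences between sub-types use log2 CPM with a prior count of 2. Benjamini-Hochberg adjustment ran over all genes tested, or over the 9 sub-types. Single values per mouse were compared by an exact permutation test over 6 pairs. Scripts were tested on simulated data. Named genes are the list genes, those passing FDR < 0.1, the 10 of smallest genotype p among genes changing the same way in 6 pairs, the 15 highest and 10 lowest against DE and VE (at least 100 UMIs, 10 of 12 mice), and for other lists the smallest p. The members and lists were chosen with earlier results of these data known. The labels give the pool as a shared run, so it was a term in the genotype fits (a mouse term took its place between sub-types), although the median r of same-pool deviations from the group means was 0.0309. Mice are separate animals, so p values within ME measure the spread between animals. That spread includes the sampling of 5 to 30 ME nuclei per mouse. Between sub-types, the mouse term takes out the level of each animal, and p values measure the spread of differences within mice. Results for some genes are not reported here.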

Additional observations from a re-analysis of the deposited data

Results flagged for a closer look

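The share of ME among neurons was 5.46% in the male SOD1G93A mouse of pool C, far above the next of the 6 SOD1G93A mice at 2.76%. The median number of UMIs per ME nucleus was 22152 in the female SOD1G93A mouse of pool C, which has 6 ME nuclei, against 11534 in the next SOD1G93A mouse and at most 15867 in WT mice. Dner had 284 CPM in the ME nuclei of the female WT mouse of pool C, against 223 CPM in the next WT mouse. In all, 40 groups of 6 mice were examined and 3 had such a mouse, where chance gives about 1 in 20. The genotype effect on Alcam was larger in ME than in VE neurons by 0.69 on the log2 scale, a difference that was itself tested with a term for each mouse (limma-voom adjusted p = 0.0486). The call was lost without the mouse term (0.205), with no filter on low counts (0.310) and when any one of 10 of the 12 mice was left out (up to 0.458).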

How the results depend on the processing

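Genotype gave 0 genes in ME under edgeR, DESeq2, TMM factors, a minimum count of 30, no pool term (no replicate block), an eBayes fit that was not robust, quality weights and the nuclei with a Slc17a6 UMI. It gave 13 genes with no filter on low counts, 2 with only mice of 10 or more ME nuclei (which leaves 1 SOD1G93A female, assumed to vary like the other groups), and 0 to 1 with each mouse left out, where the single gene was Hdac9, 2810404M03Rik or Unc5d when the SOD1G93A female of pool A, B or C was absent. With no filter, 2146 of 18637 genes had an unadjusted p under 0.05 for genotype, against 147 of 3977 in the main fit, so calls without the filter are less certain. Sex gave 11 genes with no filter, 3 to 9 with each mouse left out, and 2 (Xist and Uty) with a minimum count of 30, with only nuclei holding a Slc17a6 UMI and with only cluster 27. Genotype by sex gave 2 genes with edgeR, 1 with DESeq2, 31 with no filter, 1 with only the nuclei of cluster 27 (an alternative chosen after seeing the data) and 0 to 3 with each mouse left out. The difference of the genotype effect gave 3 genes for ME and DE with edgeR and 0 to 4 with each mouse left out. For ME and VE it gave 0 genes with no filter, 0 with no mouse term (no replicate block) and 0 to 1 with each mouse left out. Same-pool mice shared a pool, but only 4 of 18 of their correlations were above 0.1, and the block changed no other call.

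The count of genes at least 2-fold higher in ME than in DE and VE was 13 at 300 UMIs and 16 with only nuclei holding a Slc17a6 UMI, beside 28, and 20 with WT mice only, 37 on unscaled library sizes and 23 to 27 with each mouse left out. The ME share by genotype turned to −0.12 with all nuclei as the denominator and ranged from −0.058 to 0.37 with each mouse left out, and by sex it ranged from −0.40 to 0.069. With each pair left out, UMIs per nucleus ranged from −0.32 to 0.023 (log2) and genes per nucleus from −5.22 to 13.1, and unthinned genes per nucleus differed by −70.7, none of which passed. Of single genes, Slc17a6 turned to −0.27 with only mice of 10 or more ME nuclei and ranged from −0.00271 to 0.38 with each mouse left out, Flrt2 in ME minus VE ranged from −0.15 to 0.26, and Pde1a turned to 0.011 in cluster 27, was −1.41 with only nuclei holding a Slc17a6 UMI and passed with no filter (−0.94, limma-voom adjusted p = 0.0437). Over all alternatives, the genotype effect in ME ranged from 0.45 to 1.23 for Sod1 and from 0.46 to 0.94 for Cdc42se2. It ranged from 0.47 to 0.90 for Brd8 and from −2.25 to −1.05 for Gm16083. The causes were not tested.

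The 25 leading genes kept their direction against DE and VE in all 300 values with a mouse left out. Under the other alternatives 123 of their values stayed within the spread between mice and 2 did not, Adamts2 at 0.62 with only nuclei holding a Slc17a6 UMI and Lncenc1 at −4.13 with a prior count of 0.5. Over all alternatives, the smaller of the differences from DE and VE ranged from 1.08 to 2.02 for Gm49171 and from 1.02 to 1.69 for A830019P07Rik. Among the lower genes it ranged from −2.95 to −1.05 for Itgav and from −3.14 to −1.33 for Abtb2. Depth limits genes with few UMIs, since the ME sums hold 61732 to 483266 UMIs per mouse.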
